A study of Rattus norvegicus with 9 samples.

Results

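The genes described here are S100b, Gfap, Pmp22, Mbp and Sox10, a group of 5 genes known from glial cells and from myelin. The RG_U34A rat array used in the study holds 8799 probe sets, and every probe set whose only gene symbol in the platform annotation was one of the 5 was taken. This gave 6 probe sets of 4 genes: 2 for S100b, 2 for Pmp22, 1 for Mbp and 1 for Sox10, while no probe set carried Gfap as its only symbol. A further 1473 probe sets have no symbol in that annotation and were assigned to no gene, so Gfap is not analysed here. Whether any of these unassigned probe sets measures Gfap was not determined. A probe set was tested where its mean signal reached 100 in at least 1 diet, which left 5606 probe sets of the array and 4 of the 6 described here. The probe set of Mbp and the second probe set of S100b stayed under 100 on all 9 arrays.

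The study asked how the protein of the diet bears on gene expression in the proximal colon of rats given azoxymethane (AOM), a chemical that induces colon tumors. Male Sprague Dawley rats were fed soy protein isolate (SPI), whey protein hydrolysate (WPH) or casein (CAS, the control diet) for life, beginning with the feed of their dams. All rats of the 3 diets received 2 injections of AOM at 15 mg/kg, and tissue without tumor from the proximal part of the colon was taken 40 weeks later. RNA of 7 rats was combined into 1 pool per diet, and 3 labelled targets made from each pool were hybridized to 1 array each, so that the spread between arrays of a diet is technical and p-values compare 3 pools, not groups of rats. Because whole tissue was used, fewer cells of a type and less RNA per cell cannot be told apart.

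Enteric glia surround the neurons of the ganglia in the gut wall and follow their fibers into the muscle layers and the mucosa. S100b, a small calcium-binding protein, and Gfap, an intermediate filament protein, are their customary markers, and Sox10 is the transcription factor that sets the identity of glia derived from the neural crest. Pmp22 and Mbp are proteins of compact myelin, the sheath that Schwann cells wrap around axons in peripheral nerves. Most nerve fibers within the gut wall are not myelinated, and Pmp22 is also made by epithelial cells and fibroblasts outside the nervous system.

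Signals were the deposited MAS 5.0 values (the summary of a probe set by the array maker's software, scaled to one target value per array). The arrays resembled each other in scale, with medians between 148.7 and 164.6 and with 58.6% to 60.2% of signals at or above 100. The ratio of the 3' to the 5' probe set of beta-actin, a sign of RNA integrity, was 2.14 to 2.36 on SPI arrays, 2.53 to 3.50 on WPH arrays and 1.83 to 1.88 on CAS arrays, and these ranges did not overlap. The same ratio for Gapdh was 1.48 to 1.65 on SPI arrays, 1.57 to 1.70 on WPH arrays and 1.34 to 1.71 on CAS arrays. No sample label names a batch, and 3 wash rounds were set from the clock time of the fluidics step in the instrument files. A gap of over 30 minutes parted them, and whether they are the true processing batches is not known. The first held the 3 CAS arrays and WPH array 2, the next held SPI arrays 1 and 2 and WPH arrays 1 and 3, and the last held SPI array 3 alone. SPI and CAS arrays therefore shared no round and can be compared with round as a block only through WPH. With that block, the WPH against CAS change is WPH array 2 alone against the 3 CAS arrays. The SPI against CAS change runs through the same WPH array, and SPI array 3 adds nothing to it. Every value given below for these comparisons with round as a block leans on that 1 WPH array. With the block, the SPI against WPH change is SPI arrays 1 and 2 against WPH arrays 1 and 3, and leaves WPH array 2 out.

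The promoters of S100b and Pmp22 are shown first, since these 2 genes carry the diet differences in opposite directions. Each is the stretch of 250 bases before the RefSeq start site on GRCr8, written 5′ to 3′ on the strand of the gene, at chr20:12381082-12381331 on the minus strand for S100b and at chr10:48294682-48294931 on the plus strand for Pmp22. Capitals mark CCAAT boxes on either strand (CCAAT, or ATTGG where the box lies on the opposite strand).
S100b: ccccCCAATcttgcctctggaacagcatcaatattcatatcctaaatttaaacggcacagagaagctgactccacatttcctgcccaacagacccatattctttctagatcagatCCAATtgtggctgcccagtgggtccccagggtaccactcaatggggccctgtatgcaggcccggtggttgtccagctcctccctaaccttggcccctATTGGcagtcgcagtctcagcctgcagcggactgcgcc
Pmp22: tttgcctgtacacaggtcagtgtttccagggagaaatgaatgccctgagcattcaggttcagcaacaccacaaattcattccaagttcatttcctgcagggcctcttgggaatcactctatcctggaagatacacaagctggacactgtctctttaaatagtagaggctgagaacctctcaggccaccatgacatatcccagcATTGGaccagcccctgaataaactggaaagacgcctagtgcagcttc
The S100b stretch held 3 CCAAT matches and the Pmp22 stretch held 1, and of 33469 rat promoters of this length 34.0% held at least 1. The core letters bound by SOX factors (ACAAAG or ACAATG, both strands, no overlap with CCAAT) were found in neither stretch and in 25.3% of all promoters. Of the other genes described, the Gfap promoter and the first of 2 Mbp promoters held 0 matches, and the second Mbp promoter held 3. These are matches of letters only, and the CCAAT motif was chosen after the sequences had been seen.

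S100b signals were higher under both tested proteins than under casein, and highest under WPH. Probe set S53527mRNA_s_at read 1317, 1059 and 1258 on the SPI arrays, 2262, 1518 and 1742 on the WPH arrays, and 692, 638 and 704 on the CAS arrays. The diets did not overlap in any pair, and WPH array 1 stood above its 2 replicates. The means were 1211 ± 135 under SPI, 1841 ± 382 under WPH and 678 ± 34.9 under CAS (SD, n = 3 arrays of 1 pool each). WPH was 2.71-fold above CAS, a log2 change of 1.42 (95% interval 1.10 to 1.74, limma adjusted p = 1.52e-05). SPI was 1.79-fold above CAS, a log2 change of 0.83 (0.51 to 1.15, limma adjusted p = 0.0018). SPI lay 1.52-fold below WPH, a log2 change of -0.59 (-0.91 to -0.27, limma adjusted p = 0.0151).

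The wash rounds and the actin ratio moved with parts of this result. With round as a block, the WPH against CAS change of S100b was 1.16 (limma adjusted p = 0.00244), the SPI against WPH change was -0.75 (limma adjusted p = 0.0237), and the SPI against CAS change was 0.41 with an interval of -0.16 to 0.99 (limma adjusted p = 0.438), which ends that call. The 3'/5' ratio of beta-actin followed the order of S100b over the diets. Within WPH its values of 3.50, 2.53 and 2.92 on arrays 1, 2 and 3 had the same order as the S100b signals. Within SPI the orders also matched, and within CAS they did not. The Sox10 means had the same order over the diets, and the Sox10 signals matched the ratio within WPH and SPI but not within CAS. The part of this actin ratio in the S100b and Sox10 differences was not tested. The methods' t-test, run on the linear signals with Benjamini-Hochberg adjustment, did not call SPI against WPH (adjusted p = 0.192).

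The second S100b probe set, rc_AI146214_at, gave no usable level. It read 35.5, 48.8 and 36.2 on the SPI arrays, 40.1, 29.0 and 68.7 on the WPH arrays, and 35.4, 31.0 and 25.2 on the CAS arrays. The WPH arrays overlapped those of both other diets, and the SPI arrays lay above the CAS arrays only by 35.5 against 35.4. All 9 signals were under 100 and too dim for a test, so the S100b result rests on S53527mRNA_s_at, whose suffix marks probes that can match more than a single related sequence.

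**Figure D1:**
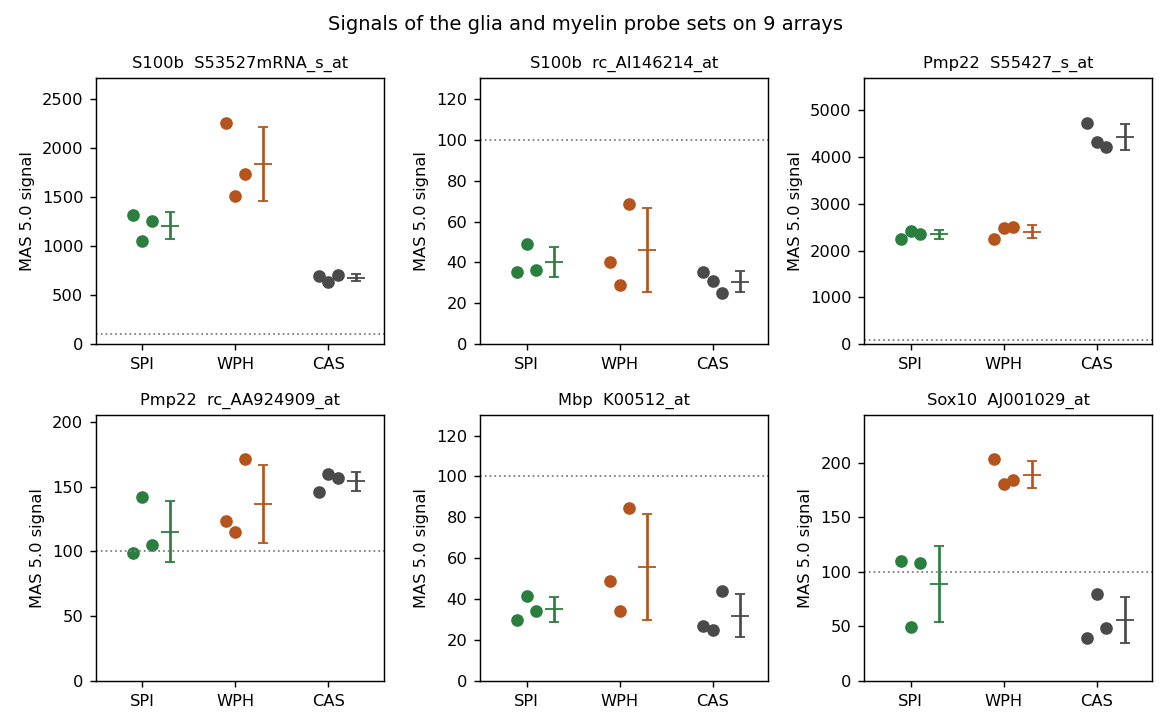
MAS 5.0 signal (vertical axis, linear, from 0) of each of the 6 probe sets on the SPI, WPH and CAS arrays. Points are single arrays, the bar beside them is the mean with its SD (n = 3 arrays), and the dotted line is the signal of 100 used as the filter. S100b S53527mRNA_s_at is separated into 3 levels, Pmp22 S55427_s_at is bright on all arrays and highest on CAS arrays, and Mbp stays under the line.

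Sox10, the glial transcription factor, was seen clearly under WPH only. AJ001029_at read 109.7, 49.0 and 108 on the SPI arrays, 203, 180 and 184 on the WPH arrays, and 39.7, 79.8 and 48.4 on the CAS arrays. All 3 WPH arrays lay above every other array, the SPI and CAS arrays overlapped, and no CAS array reached 100. The means were 88.8 ± 34.5 under SPI, 189 ± 12.3 under WPH and 56.0 ± 21.1 under CAS (SD, n = 3). The probe set passed the filter only through its WPH mean, so that its presence among the tested ones is not independent of a difference. With each CAS signal set to 100, Sox10 was at least 1.89-fold higher under WPH than under CAS. The test used the signals as read, with a log2 change of 1.82 (limma adjusted p = 0.00227), and 1.75 with round as a block. Because the CAS signals were all under 100 and the filter was passed through WPH, that p-value is a description.

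For SPI, the Sox10 comparisons were less firm. SPI against CAS gave a log2 change of 0.64 (95% interval -0.18 to 1.45, limma adjusted p = 0.266), which did not pass the threshold. Without SPI array 2, the dimmest of that diet, the change was 1.02 (limma adjusted p = 0.0492). SPI lay 2.13-fold below WPH (log2 change -1.18, -1.99 to -0.36, limma adjusted p = 0.0454), and this call was lost in 11 of 19 alternative settings, over which the adjusted p was 0.0259 to 0.121. The settings that lost it included leaving out CAS array 3, any SPI array or any WPH array, and without SPI array 2 the change was -0.80 (limma adjusted p = 0.121).

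Pmp22 took another course, with similar signals under SPI and WPH and higher signals under casein. S55427_s_at read 2254, 2428 and 2359 on the SPI arrays, 2239.7, 2477 and 2499 on the WPH arrays, and 4737, 4325 and 4209.6 on the CAS arrays. Every CAS array lay above every array of the other diets, whereas SPI and WPH overlapped. This probe set carries the same suffix as that of S100b. The means were 2347 ± 87.2 under SPI, 2405 ± 144 under WPH and 4424 ± 277 under CAS (SD, n = 3).

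In Pmp22, the tetraspan protein of peripheral myelin, both tested diets fell relative to CAS. SPI was 1.89-fold lower than CAS (log2 change -0.91, 95% interval -1.10 to -0.73, limma adjusted p = 2.31e-05, and 0.0338 with round as a block). WPH was 1.84-fold lower than CAS (log2 change -0.88, -1.07 to -0.69, limma adjusted p = 9.73e-06, and 0.00212 with round as a block). SPI and WPH differed by -0.03, with an interval of -0.22 to 0.15 (limma adjusted p = 0.813). That interval holds only the spread between arrays of 1 pool per diet, so it sets no bound on a difference between rats of these diets.

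The second Pmp22 probe set, rc_AA924909_at, was dim and its changes did not pass the test. It read 98.8, 142 and 105 on the SPI arrays, 124, 115 and 171 on the WPH arrays, and 146, 160 and 157 on the CAS arrays. The SPI arrays lay below the CAS arrays without overlap and WPH overlapped both. Its log2 changes were -0.44 for SPI against CAS (limma adjusted p = 0.211), -0.20 for WPH against CAS (0.535) and -0.24 for SPI against WPH (0.506), so its direction was that of S55427_s_at in both comparisons with CAS.

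Mbp, the basic protein that holds the layers of compact myelin together, gave no measurable level. K00512_at read 29.6, 41.4 and 34.0 on the SPI arrays, 48.9, 34.2 and 84.6 on the WPH arrays, and 26.7, 24.8 and 44.0 on the CAS arrays. All 9 signals were under 100 and the diets overlapped, so that no fold is given.

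Set against the array as a whole, the calls among the glia and myelin probe sets stood as follows. WPH against CAS called 2 of the 4 tested probe sets higher, against 20.9% of all tested probe sets, and 1 lower, against 17.9% (38.8% in either direction). One of the higher calls, Sox10, was tested only because of its WPH mean, so these counts are a description. SPI against CAS called 1 higher, against 12.0%, and 1 lower, against 10.2% (22.2% in either direction). SPI against WPH called none higher, against 10.1%, and 2 lower, against 9.83% (19.9% in either direction). Separation of the arrays without overlap was common on the array too: for WPH against CAS it was seen in 28.0% of tested probe sets with WPH higher and 22.4% with WPH lower, for SPI against CAS in 19.5% and 19.1%, and for SPI against WPH in 14.9% and 20.9%. The comparisons of SPI and of WPH with CAS use the same 3 CAS arrays, so they are not independent of each other. With 4 probe sets, no pattern over the group was tested. S100b was called above CAS under both tested diets, and Pmp22 was called below CAS under both. With round as a block, the SPI against CAS change of S100b was 0.41 (-0.16 to 0.99), which ended that call. Sox10 was called above CAS under WPH only, from a probe set that was tested through its WPH mean.

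**Figure D2:**
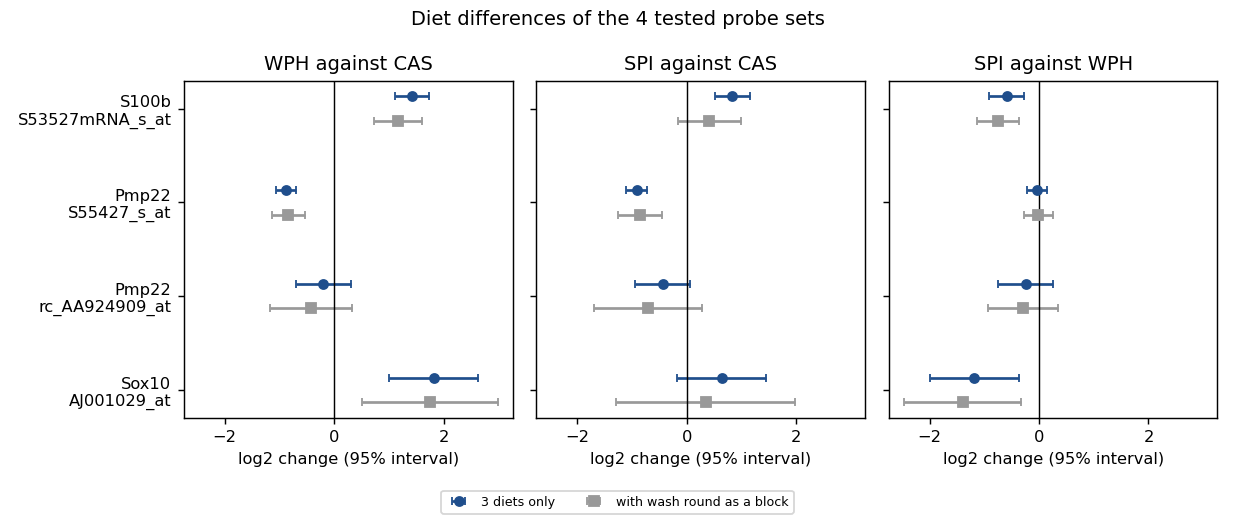
Log2 change (horizontal axis) with its 95% interval for the 4 tested probe sets in 3 panels, WPH over CAS, SPI over CAS and SPI over WPH, from the fit on the 3 diets (circles) and with wash round as a block (squares). S100b in SPI against CAS is at 0.83 in the first fit and at 0.41, with an interval across 0, with the block, whereas Pmp22 S55427_s_at stays below 0 against CAS in both.

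Other genes of myelin and of Schwann cells were called in both directions. Of all tested probe sets, 20.9% were called higher and 17.9% lower in WPH against CAS, and 12.0% and 10.2% in SPI against CAS. In SPI against WPH these shares were 10.1% and 9.83%. The counts of this list and of the lists that follow are to be read beside these shares. Of 24 listed genes, 17 had a probe set with a single symbol and 13 were tested. WPH against CAS had 6 higher and 4 lower with a median log2 change of 0.40, SPI against CAS had 1 higher and 3 lower with a median of 0.08, and SPI against WPH had 3 higher and 2 lower with a median of -0.05, where the medians of all tested probe sets were 0.06, -0.01 and -0.08. With round as a block, the counts were 2 and 3, 0 and 1, and 0 and 0. Leaving out 1 array gave 2 to 5 higher in WPH against CAS, with 2 without CAS array 3 and 3 without WPH array 1 or 2. It gave 0 to 2 higher in SPI against CAS, with 2 without CAS array 2 and 0 without CAS array 3 or SPI array 2 or 3. In SPI against WPH it gave 1 to 3 higher, with 1 without SPI array 3 or WPH array 1, and 1 to 3 lower, with 1 without SPI array 1 or 3 or WPH array 2.

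In this list, Mal, Ugt8 and Pllp were called lower than CAS under both tested diets, as Pmp22 was, whereas Ninj1 was called higher under both. Mal, a proteolipid of apical membranes and myelin, averaged 123 ± 17.5 under SPI, 126 ± 24.9 under WPH and 230 ± 9.47 under CAS. Ugt8, which makes the galactolipids of myelin, averaged 204 ± 15.8 under SPI, 146 ± 5.62 under WPH and 403 ± 44.6 under CAS. Pllp, plasmolipin, averaged 165 ± 12.4 under SPI, 66.7 ± 33.4 under WPH and 480 ± 40.1 under CAS. All 3 were lower than under CAS, both under SPI (limma adjusted p between 0.000718 and 0.00718) and under WPH (1.27e-05 to 0.00422), and the block ended the SPI calls of Mal (adjusted p = 0.0792) and Ugt8 (0.0906).

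Among further genes of myelinating Schwann cells, some passed the test and some did not. Gjb1, the connexin of Schwann cell myelin and of liver, averaged 302 ± 29.9 under SPI, 174 ± 45.2 under WPH and 279 ± 53.3 under CAS. It was lower under WPH than under CAS (log2 change -0.70, limma adjusted p = 0.0227) and higher under SPI than under WPH (0.83, 0.0198), and both calls were lost with round as a block (0.198 and 0.126). Mag, myelin-associated glycoprotein, averaged 361 ± 25.4 under SPI, 385 ± 42.7 under WPH and 462 ± 79.2 under CAS. Prx, periaxin, averaged 269 ± 27.4 under SPI, 212 ± 26.6 under WPH and 203 ± 28.9 under CAS. Neither Mag nor Prx passed in any of the 3 comparisons, and Egr2 was not tested. Mog, Mobp and Pou3f1 stayed under 100 on all arrays. By contrast, Cd9, a tetraspanin found on many cell types, averaged 2761 ± 297 under SPI, 4054 ± 480 under WPH and 2418 ± 259 under CAS. It was higher under WPH than under CAS (limma adjusted p = 0.000472). Lpar1, Ncam1, L1cam, Mpdz and Ninj1 of the same list were also called higher in WPH against CAS (limma adjusted p between 0.00698 and 0.0465). Ninj1 averaged 814 ± 100 under SPI, 729 ± 131 under WPH and 523 ± 104 under CAS. It was called in SPI against CAS too (limma adjusted p = 0.0205), and the block ended both Ninj1 calls.

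Of 22 genes for glial transporters, filaments and identity, 17 had a probe set and 12 were tested. WPH against CAS had 7 higher and 1 lower with a median of 0.52, SPI against CAS had 5 higher and 1 lower with a median of 0.31, and SPI against WPH had 2 higher and 4 lower with a median of -0.15. With round as a block, the counts were 7 and 1, 1 and 0, and 1 and 2, and without SPI array 1 SPI against CAS had 3 higher. In SPI against WPH, leaving out CAS array 1, SPI array 1 or 3, or any WPH array gave 1 higher. Fabp7, Gja1, Aqp4, Kcnj10 and Apod were under 100 on every array.

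Several genes of this list followed the order of S100b, and others did not. Sparcl1, a matricellular protein of astrocytes and of vessels, averaged 9323 ± 367 under SPI, 14738 ± 920 under WPH and 6585 ± 469 under CAS, with a log2 change of 1.16 for WPH against CAS (limma adjusted p = 8.24e-07). Cryab, a small heat shock protein of glia and muscle, averaged 1534 ± 126 under SPI, 2140 ± 260 under WPH and 1106 ± 72.2 under CAS (limma adjusted p = 4.48e-05 for WPH against CAS). Apoe, a lipid carrier, was instead highest under SPI, at 16386 ± 1419, against 9891 ± 819 under WPH and 7239 ± 938 under CAS (limma adjusted p = 2e-05 for SPI against CAS, and 0.00693 with round as a block). Glul, glutamine synthetase, averaged 3924 ± 247 under SPI, 3228 ± 141 under WPH and 5499 ± 368 under CAS, and was lower under WPH than under CAS, with a log2 change of -0.77 (limma adjusted p = 2.76e-05).

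The list of glial growth factors and their receptors gave 13 tested genes of 22 listed and 16 on the array, and its receptors need not lie on glia. WPH against CAS had 5 higher and none lower with a median of 0.39, SPI against CAS had 3 higher and none lower with a median of 0.29, and SPI against WPH had none higher and 2 lower with a median of -0.26. The counts with round as a block were 3 and 0, 0 and 0, and 0 and 2, and without WPH array 1 WPH against CAS had 1 lower. Ret, the receptor that receives glial cell line-derived neurotrophic factor in the enteric nervous system and is made by enteric neurons and their precursors, averaged 348 ± 32.3 under SPI, 632 ± 52.0 under WPH and 201 ± 26.3 under CAS. Its log2 change was 1.66 for WPH against CAS (limma adjusted p = 3.61e-06) and 0.80 for SPI against CAS (0.00191, and 0.154 with round as a block). Of its co-receptors, Gfra1 averaged 264 ± 46.0 under SPI, 376 ± 26.2 under WPH and 191 ± 35.9 under CAS, and was called in WPH against CAS only (limma adjusted p = 0.00112). Gfra2 averaged 536 ± 81.7 under SPI, 735 ± 36.9 under WPH and 319 ± 81.8 under CAS, higher than CAS under SPI (limma adjusted p = 0.0112, and 0.456 with round as a block) and under WPH (0.000249). Ntrk2, the receptor of brain-derived neurotrophic factor, averaged 26.8 ± 10.3 under SPI, 121 ± 21.4 under WPH and 50.2 ± 15.5 under CAS, passed the filter through WPH alone, and its WPH against CAS call (limma adjusted p = 0.039) was lost with round as a block (0.254).

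In the S100 family, S100b was not alone in moving. Of 6 tested relatives, 4 were higher and 1 lower in WPH against CAS, 4 higher and 1 lower in SPI against CAS, and 3 higher and 1 lower in SPI against WPH, with medians of 0.68, 0.63 and 0.32. With round as a block, the counts were 1 and 1, 1 and 0, and 3 and 0. S100a4, a calcium-binding protein of fibroblasts and leukocytes, had the order of S100b, with 1508 ± 117 under SPI, 1961 ± 223 under WPH and 880 ± 19.5 under CAS (limma adjusted p = 6.99e-06 for WPH against CAS). S100a9, a protein of neutrophils, averaged 783 ± 158 under SPI, 71.7 ± 11.9 under WPH and 27.7 ± 12.0 under CAS, and its partner S100a8 averaged 347 ± 90.9 under SPI, 9.43 ± 7.42 under WPH and 4.07 ± 0.551 under CAS. Both passed the filter through SPI alone, and both are among the higher calls in SPI against CAS and in SPI against WPH. The family counts and medians of those comparisons are therefore a description. S100a9 is one of the 4 higher calls in WPH against CAS although all arrays of those diets were under 100, where signals have no firm order, and without CAS array 1 or WPH array 1 that count was 2. In SPI against WPH the family had 0 lower without SPI array 1 or 3 or WPH array 2 or 3. S100g, the calbindin of calcium-absorbing epithelium, averaged 1724 ± 146 under SPI, 1238 ± 137 under WPH and 2421 ± 67.5 under CAS.

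The closest relatives of Pmp22 on the array were Emp1 and Lim2. Emp1, an epithelial membrane protein of the same family, averaged 630 ± 59.4 under SPI, 467 ± 10.7 under WPH and 2185 ± 375 under CAS. It was lower than CAS under SPI, with a log2 change of -1.78 (limma adjusted p = 4.44e-06) and under WPH, with a change of -2.21 (3.31e-07), and both calls held with round as a block (0.00725 and 0.0001). Lim2, a lens protein, was not called in any comparison, with log2 changes of -0.14 for SPI against CAS and -0.16 for WPH against CAS.

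Markers of the other cell types in the colon wall moved with these results. Of 16 tested markers of enteric neurons, 14 rose and none fell in WPH against CAS, 10 rose and none fell in SPI against CAS, and none rose and 10 fell in SPI against WPH, with medians of 1.12, 0.60 and -0.55. Their summed signal was 15438 to 16874 on SPI arrays, 24507 to 26937 on WPH arrays and 10355 to 10633 on CAS arrays, in the order of S100b, and Nos1 and Syt1 stayed under 100. Prph, peripherin of peripheral neurons, averaged 1651 ± 56.6 under SPI, 2696 ± 260 under WPH and 956 ± 26.5 under CAS. Of 10 tested smooth muscle markers, 9 rose in WPH against CAS and 9 in SPI against CAS, 8 fell in SPI against WPH, and their summed signal was 170009 to 173456 on SPI arrays, 227595 to 258267 on WPH arrays and 119078 to 121408 on CAS arrays.

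Epithelial markers moved the other way. All 14 tested fell in WPH against CAS and 10 fell in SPI against CAS, and 12 rose in SPI against WPH, with medians of -2.05, -0.87 and 1.23. Their summed signal was 35793 to 38649 on SPI arrays, 14622 to 16709 on WPH arrays and 68328 to 74541 on CAS arrays, without overlap. Epcam, an adhesion protein of epithelium, averaged 2299 ± 138 under SPI, 440 ± 26.6 under WPH and 4124 ± 178 under CAS. With round as a block, the counts in SPI against CAS were 1 higher for neurons, 3 higher for muscle and 7 lower for epithelium. The part of these shifts in the S100b, Sox10 and Pmp22 differences was not tested.

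**Figure D3:**
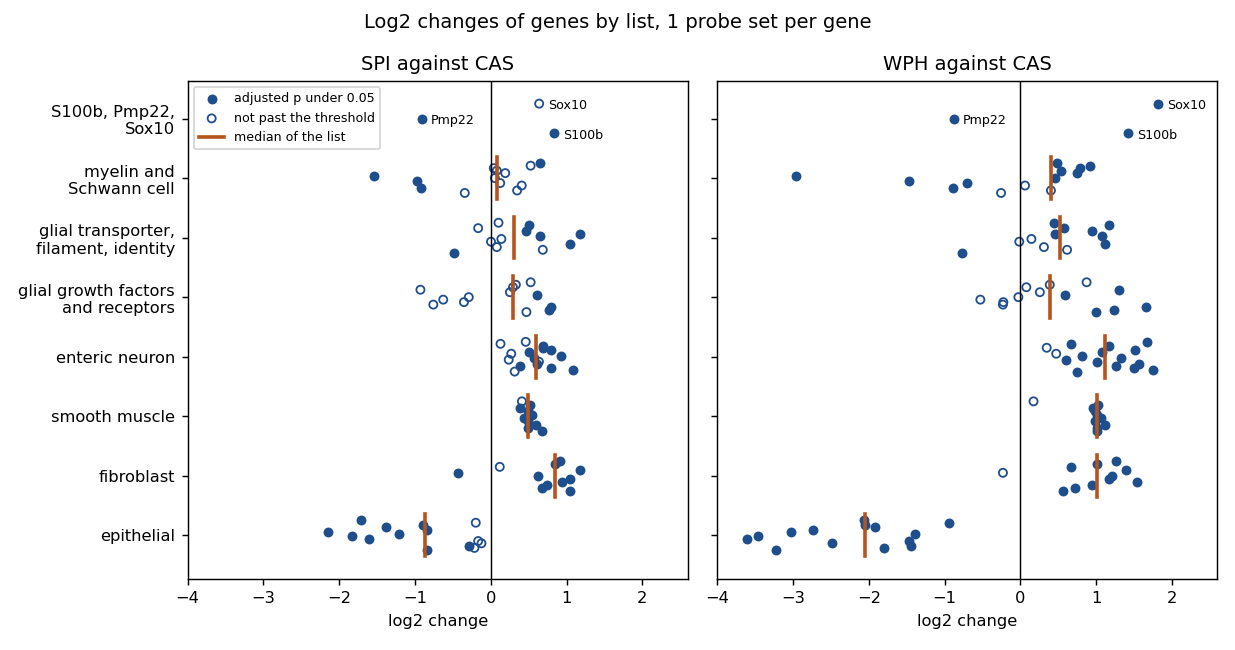
Log2 change (horizontal axis) of each tested gene, 1 probe set per gene, in SPI against CAS and WPH against CAS. Each row is a gene list, filled circles passed an adjusted p of 0.05, open circles did not, and the vertical bar is the median of a list, left out for the top row; neuron and muscle genes lie right of 0 and epithelial genes left of it, with S100b and Sox10 on the right and Pmp22 on the left.

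The genes whose signals were most like those of each gene over the 9 arrays were found as the smallest root mean square difference of centred log2 signals. For S100b, among 4622 named candidates, these were Ina (0.135), a neuronal intermediate filament protein, Flnc (0.148), a filamin of muscle, Prph (0.158), Schip1 (0.163) and Nexn (0.170), an actin-binding protein of muscle. Ina averaged 308 under SPI, 452 under WPH and 197 under CAS. For Pmp22 the nearest were Acadm (0.0763), an enzyme of fatty acid oxidation, Dusp5 (0.0938), a phosphatase, Mcpt1 (0.104), a mast cell protease, Dpp4 (0.105), a peptidase of the epithelial brush border, and Ica1 (0.111). Acadm averaged 895 under SPI, 901 under WPH and 1669 under CAS.

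For Sox10 the nearest were Cd5 (0.168), Agtr1a (0.280), Ptn (0.282), Scg2 (0.319) and Ret (0.330). Cd5 averaged 102 under SPI, 236 under WPH and 59.1 under CAS. The likeness to Sox10 includes its signals under 100 on the CAS arrays and on SPI array 2, which have no firm order. Ptn, pleiotrophin, averaged 2467 under SPI, 3678 under WPH and 1255 under CAS. Likeness over arrays of 3 pools is a description, and arrays of a pool share its RNA.

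**Figure D4:**
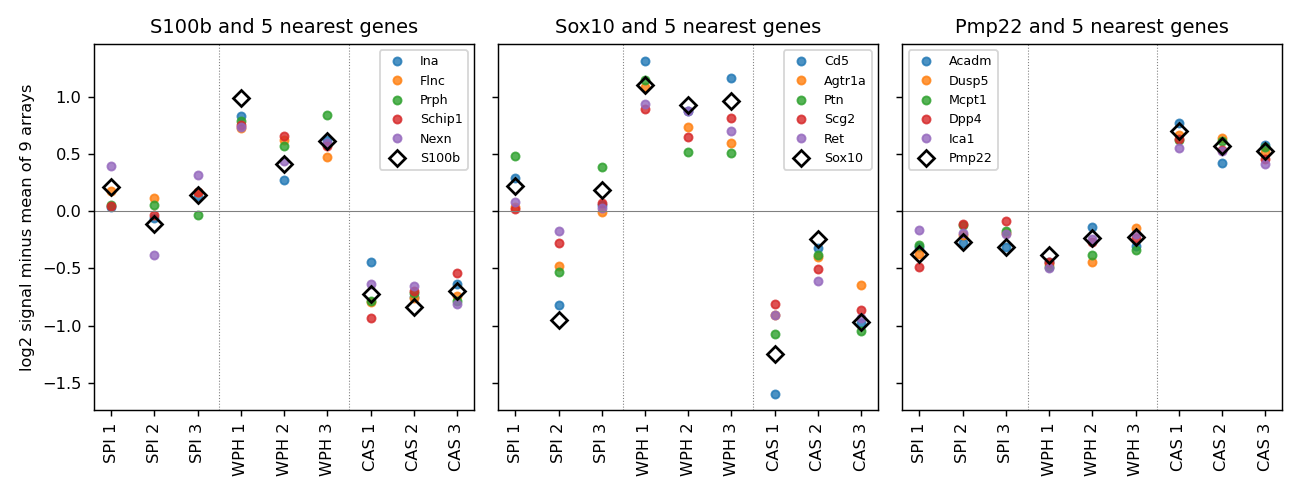
Log2 signal minus its mean over the 9 arrays (vertical axis) for S100b, Sox10 and Pmp22 (open diamonds) and the 5 named genes most like each (points), on the SPI, WPH and CAS arrays along the horizontal axis. The S100b neighbours sit lowest on CAS arrays and the Pmp22 neighbours highest on them.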

How the data were processed

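Proximal colon RNA of rats on 3 diets was measured on 9 Affymetrix RG_U34A arrays, 3 targets made in parallel from each pool of 7 rats (8 µg of RNA each, 10 µg of cRNA hybridized for 16 h). The deposited signal values are MAS 5.0 signals that the authors scaled to a target of 500 per array, and no further normalization was applied. Other deposited instrument files gave only the time of the fluidics step and were used to set wash rounds, parted by gaps of over 30 minutes. In the platform annotation 7018 of 8799 probe sets had 1 symbol, 308 several and 1473 none, and 59 controls were left out. Signals under 0.1 were set to 0.1, log2 values were fitted with limma 3.58.1 (R 4.3.3) over all 9 arrays with a coefficient per diet and a variance trend, and p-values were adjusted by Benjamini-Hochberg over 5606 probe sets with a mean of at least 100 in at least 1 diet, at 0.05. A group with all arrays under 100 is a bound, each such signal set to 100. In the lists, a gene with several probe sets was represented by its brightest one on the log2 scale. Named were all members, up to 4 genes per list with the smallest adjusted p, and the 5 nearest genes by pattern. Gjb1, Mag, Prx, Lpar1, Ncam1, L1cam, Mpdz, Ninj1, Lim2, Sparc and Pparg were named outside this rule after their values were seen. Alternatives were a floor of 50, an added 32, filters of 200 or none, median centring, quantile normalization, no trend, only the compared diets, blocks for replicate and wash round, the methods' t-test on linear signals, a 2-fold minimum and leaving out each array. Members and lists were chosen with earlier results of these data known. The script was tested on simulated data. The number of arrays limits the precision.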

Additional observations from a re-analysis of the deposited data

How the results depend on the processing

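No change of the 4 tested glia and myelin probe sets reversed under the alternatives run. Nor did any called change of the up to 4 genes named per list by their adjusted p. The signs of other changes were not followed over the alternatives. For those genes named from the lists, of 2238 alternative values of 112 called changes, 2089 kept their call and 149 lost it, 36 of them with wash round as a block. The 4 glia and myelin probe sets tested gave higher and lower calls of 2 and 1 in WPH against CAS, 1 and 1 in SPI against CAS and 0 and 2 in SPI against WPH. In WPH against CAS, 1 was higher with a filter of 200, which leaves out Sox10, and 0 were lower when a change of 2-fold was also required. In SPI against CAS, 0 were higher with the wash round block and 0 higher and 0 lower with the 2-fold minimum, and leaving out 1 array gave 1 to 2 higher, the 2 without SPI array 2. In SPI against WPH, 1 was lower with the filter of 200, with no filter, with the replicate block, with the wash round block, with the 2-fold minimum and by the methods' t-test without adjustment, 0 with that test adjusted, and 1 to 2 on leaving out an array (1 without CAS array 3 or any SPI or WPH array). Over all probe sets, 1174 were higher and 1001 lower in WPH against CAS, 673 and 570 in SPI against CAS, and 565 and 551 in SPI against WPH. With the wash round block, these were 731 higher in WPH against CAS, 100 higher and 152 lower in SPI against CAS, and 352 higher and 208 lower in SPI against WPH. With the 2-fold minimum they were 310 and 481, 134 and 188, and 252 and 58. The methods' t-test with adjustment gave 396 higher in SPI against CAS and 308 higher and 228 lower in SPI against WPH, and without adjustment 856 lower in the last. Leaving out 1 array gave 343 to 557 lower in SPI against WPH, with 343 without WPH array 2 and 360 without SPI array 1. The cause of these differences was not tested, apart from the filter and the fold minimum, which set the counts by construction.

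The replicate numbers pair targets only by name, and the correlations of same-numbered arrays lay between -0.275 and 0.237. With the replicate block, Sox10 in SPI against WPH kept a log2 change of -1.18 with an adjusted p of 0.0915, and all probe sets gave 1076 and 936, 537 and 493, and 481 and 409. With 3 technical arrays of 1 pool per diet, spread between rats was not measured, and signals under 100 have no firm order.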

Other observations

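Leukocyte, fibroblast, adipocyte and endothelial markers were measured beside the glial genes. Of 11 tested fibroblast markers, 10 rose and none fell in WPH against CAS, 9 rose and 1, Sparc, fell in SPI against CAS, and 1 rose and 4 fell in SPI against WPH. Dcn, decorin of the connective tissue matrix, averaged 9523 ± 625 under SPI, 14519 ± 1970 under WPH and 5003 ± 806 under CAS (SD, n = 3). Of 8 tested leukocyte markers, 4 rose in WPH against CAS, 4 in SPI against CAS and 2 in SPI against WPH, and none fell. Lyz2, the lysozyme of macrophages and neutrophils, averaged 6692 ± 83.7 under SPI, 3331 ± 154 under WPH and 2412 ± 102 under CAS, an order unlike that of S100b. Of 6 tested adipocyte markers, 4 rose and 1, Pparg, fell in WPH against CAS and likewise in SPI against CAS, and 3 fell in SPI against WPH. Cfd, adipsin, averaged 2460 ± 86.7 under SPI, 4098 ± 97.5 under WPH and 1277 ± 110 under CAS. Of 3 tested endothelial markers, 1, Egfl7, rose in WPH against CAS and in SPI against CAS, and none was called in SPI against WPH. The Egfl7 call in SPI against CAS was lost in 13 of 20 alternatives (limma adjusted p up to 0.283), among them leaving out CAS array 2 or 3, SPI array 1 or 2, or WPH array 2 or 3. Without CAS array 3, adipocyte markers in SPI against CAS had 2 higher and 0 lower, without SPI array 1 they had 0 lower, and the Sparc call was lost without any CAS array, SPI array 2 or 3, or WPH array 2. In SPI against WPH, fibroblast markers had 0 higher without CAS array 3, SPI array 1 or 3, or WPH array 2 or 3, and leukocyte markers had 1 higher without SPI array 1. With wash round as a block, the calls in SPI against CAS were 2 higher for fibroblasts, 2 for leukocytes, 2 for adipocytes and 0 for endothelium.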
